A study of Homo sapiens with 6 samples.

Results

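The genes described here were 10 interferon-induced effectors, IFIT1, IFIT2, IFIT3, IFIT5, IFITM1, IFITM2, IFITM3, IFI6, BST2 and ISG15, of 63236 genes listed for the FUJIOKA line, which derives from human acute myeloid leukaemia. They were chosen on a measured value, since IFIT1 stood highest among interferon-stimulated genes in the authors' own comparison, and the others were taken by symbol as its relatives and fellow effectors. RNA was sequenced from 3 libraries of cells carrying a control shRNA (shNEG) and 3 libraries of cells with SPINK2 silenced by shRNA (shSPINK2), in both cases from a doxycycline-inducible lentiviral vector with puromycin selection. The labels name 2 shRNAs against SPINK2 and the methods 1, and which of them the sequenced cells carried is not clear. All libraries came from this 1 line, and nothing in the labels says whether the 3 libraries of a group were separate cultures. The value analysed for each gene was the authors' mean over all 6 libraries, which pools both groups, so the levels below carry no error and no difference between shNEG and shSPINK2 was estimated. Apart from that choice of genes, no value given here rests on the fold changes or p-values of the authors' comparison.

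Interferons are secreted proteins that cells release on sensing viral nucleic acid. Type I and type III interferons bind receptors coupled to the kinases JAK1 and TYK2. A complex that contains IRF9 then binds the interferon-stimulated response element, a repeat of GAAA separated by 2 bases, in the promoters of target genes. IFIT proteins bind viral RNA or translation factors, IFITM proteins sit in membranes and hinder the fusion of enveloped viruses, and BST2 (tetherin) holds budding virions at the cell surface. ISG15 is a ubiquitin-like protein that is attached to other proteins, and IFI6 is a small membrane protein that restricts some viruses. In myeloid cells many of these genes are transcribed without an infection, at a low level maintained by basal signalling.

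RefSeq promoters, from 250 bases before the transcription start to 50 after it, were found for 8 of the 10 genes. IFIT2 and IFITM2 had none in the table used here. The word searched was GAAA, any 2 bases and GAAA again, on both strands, and overlapping matches were counted separately. It occurred in the promoters of all 8 genes, against 1255 of 35116 promoters of all genes (3.57%). Counted by gene, 1195 of 27305 held it (4.38%). The longer word, with a C after the last GAAA, was also present in 8 of 8 genes, against 260 of 27305 genes (0.952%). Counted by promoter, 279 of all promoters held it (0.795%). The match is a description of the sequence and says nothing of whether a factor bound there in these cells.

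For each gene the match farthest before the start is printed here, in GRCh38.p14, to let the repeats be compared. Each stretch has 30 bases and is written 5′ to 3′ on the gene's own strand, with the matching word in capitals. The capitals read TTTC, any 2 bases and TTTC where the match lies on the opposite strand.
IFIT1: ctagctttagTTTCACTTTCccctttcggt
IFIT3: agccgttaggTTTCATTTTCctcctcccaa
IFIT5: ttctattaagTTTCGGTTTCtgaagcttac
IFITM1: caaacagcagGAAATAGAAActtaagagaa
IFITM3: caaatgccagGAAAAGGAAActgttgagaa
IFI6: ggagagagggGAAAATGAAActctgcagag
BST2: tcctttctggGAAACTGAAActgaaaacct
ISG15: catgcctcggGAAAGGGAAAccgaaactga

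The stretch of IFIT1 lies at chr10:89392497-89392526, that of IFIT3 at chr10:89327831-89327860 and that of IFIT5 at chr10:89414513-89414542, all with the gene on the plus strand. Those of IFITM1 and IFITM3 lie at chr11:313990-314019 (plus) and chr11:320893-320922 (minus). That of IFI6 lies at chr1:27672329-27672358 (minus), that of BST2 at chr19:17405741-17405770 (minus) and that of ISG15 at chr1:1013374-1013403 (plus).

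The word lay on the strand opposite to the gene in the 3 IFIT genes with a promoter, and on the gene's own strand in IFITM1, IFITM3, IFI6, BST2 and ISG15. IFI6 held 3 words, centred 151, 110 and 88 bases before its start. IFIT5 also held 3, centred 40 and 14 bases before its start and 1 base after it. In BST2 and ISG15 the 2 words overlapped, being centred 125 and 119 bases before the start of BST2 and 108 and 102 bases before that of ISG15. The IFITM words, like those of IFIT5, lay near the start, at 47 and 30 bases before it in IFITM3, and at 35 and 1 in IFITM1. IFIT3 has 2 annotated starts in the table, and each had 2 words. They were centred 151 and 117 bases before start 1, and 89 and 46 bases before start 2.

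The IFIT genes form 1 cluster on chromosome 10, and the IFITM genes another on chromosome 11. In GENCODE release 44 (GRCh38) the 4 IFIT genes span chr10:89283694-89421605, or 137.9 kb, all on the plus strand, in the order IFIT2, IFIT3, IFIT1 and IFIT5. IFIT1B, a relative that lies between IFIT3 and IFIT1, had a mean of 0.336 normalized reads. LIPA, which encodes lysosomal acid lipase, lies on the minus strand at chr10:89213569-89414557, across much of the cluster and beyond it. It had a mean of 6149 normalized reads, and where along the gene these reads lay was not examined. The IFIT genes had means between 169 and 686, and none of these means is divided by length. The IFITM genes span chr11:303655-329475, or 25.8 kb, with IFITM2 and IFITM1 on the plus strand and IFITM3 on the minus strand. The neighbouring IFITM5, known for its role in bone, had a mean of 1.33 normalized reads, against 7573 for IFITM2 beside it. IFI6 lies at chr1:27666064-27672212 on the minus strand, ISG15 at chr1:1001138-1014540 on the plus strand and BST2 at chr19:17402939-17405630 on the minus strand.

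All 10 genes were detected, as were 32220 of the 63236 genes listed. Per kb of annotated exon 5 of the 10 lay above and 5 below the typical protein-coding gene. Levels between genes are given per kb of annotated exon, as normalized reads per kb, because a long transcript yields more reads than a short one at the same abundance. BST2, IFI6, IFITM2, IFITM1 and ISG15 lay above the median of 215.5 normalized reads per kb over the 12444 protein-coding genes with a mean of at least 10. IFITM3, IFIT3, IFIT1, IFIT5 and IFIT2 lay below it. Per kb of canonical transcript, where that median was 351.8, IFITM3 lay above it too, making 6 of 10. Together the 10 genes took 0.0700% of the summed means of all genes.

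BST2 was the highest of the 10, with a mean of 8384 normalized reads and 7615 per kb. Of the protein-coding genes, 98.8% had a level per kb at or below it. IFI6 followed with a mean of 5035 normalized reads and 5379 per kb, 1.42-fold below BST2. ISG15 had a mean of 1290 normalized reads and 1488 per kb, at or above 90.9% of protein-coding genes. These 3 genes do not belong to the IFIT or IFITM families and lie apart from one another in the genome.

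The IFITM genes differed widely among themselves. IFITM2 had a mean of 7573 normalized reads and 4715 per kb, and IFITM1 a mean of 2800 and 1681 per kb, 2.81-fold lower. IFITM3 was far below both, with a mean of 444 normalized reads and 156 per kb, which 41.9% of protein-coding genes did not exceed. The step from ISG15 down to IFITM3, of 9.53-fold, was the widest between neighbours per kb of annotated exon. Per kb of canonical transcript it was 2.79-fold, and the widest step was then the 4.67-fold one from IFIT3 to IFIT1.

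The IFIT genes occupied the last 4 places. IFIT3, which stabilises IFIT1 on RNA, had a mean of 686 normalized reads and 135 per kb. IFIT1, which binds RNA lacking the methylation of a mature cap, had a mean of 264 and 57.3 per kb. IFIT5 had a mean of 243 and 55.6 per kb, only 1.03-fold below IFIT1, and IFIT2 closed the order with 169 and 39.2 per kb. With no value per library, whether neighbours as close as IFIT1 and IFIT5 differ beyond the spread between libraries could not be determined.

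**Figure D1:**
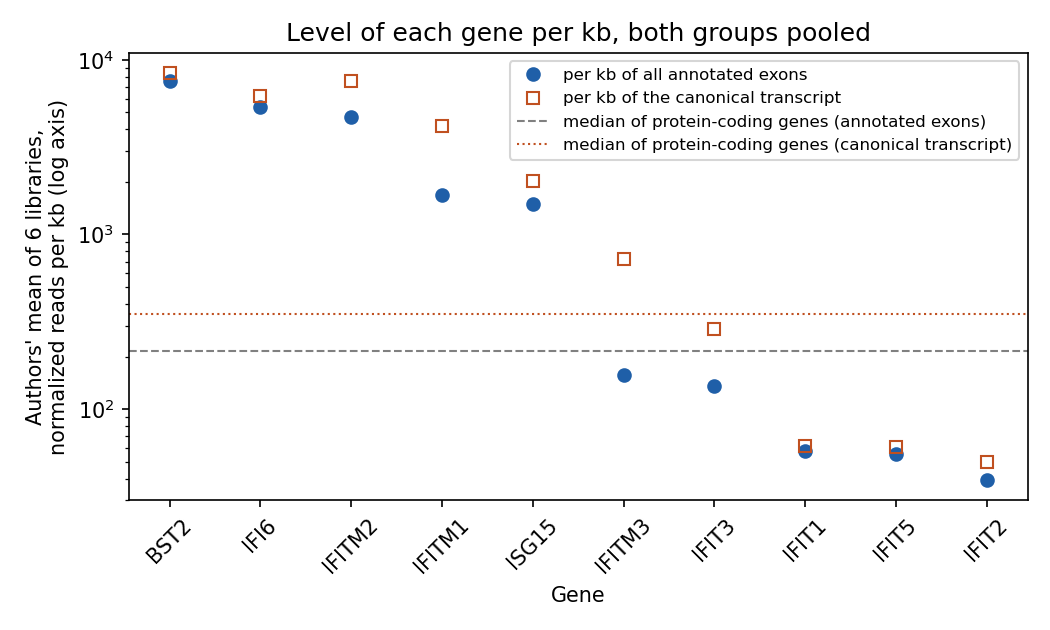
Level of each of the 10 genes as the authors' mean of 6 libraries in normalized reads per kb (log axis), with both groups pooled and so no error bars, divided by the length of all annotated exons (filled circles) or of the canonical transcript (open squares). The dashed and dotted lines are the medians of protein-coding genes on these lengths, 215.5 and 351.8 per kb. BST2, IFI6, IFITM2, IFITM1 and ISG15 lie above the median on both lengths, IFITM3 only on the second, and the IFIT genes below it on both.

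The length chosen mattered most for IFITM3 and IFITM1. The annotated exons of IFITM3 cover 2844 bases and its canonical transcript 611, which raised its level from 156 to 727 normalized reads per kb. For IFITM1 the lengths were 1666 and 668 bases, and its level rose from 1681 to 4191 per kb. IFITM2 passed IFI6 on this scale, with 7527 against 6200 per kb. The 3′ untranslated region exceeded the coding sequence in IFIT1 (2775 bases), IFIT5 (2349) and IFIT2 (1896), whereas in IFIT3 it had 840 bases. The coding sequences of these 4 genes had between 1419 and 1473 bases. All 4 have 2 exons, as do the 3 IFITM genes and ISG15, whereas BST2 and IFI6 have 5.

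Since the IFITM genes are close copies, the reads they could exchange were counted. The coding sequences of IFITM2 and IFITM3 were identical at 94.0% of 399 aligned bases, those of IFITM1 and IFITM3 at 87.6% and those of IFITM1 and IFITM2 at 85.5%. No 150-base window, the length of 1 sequenced read, was shared between the canonical transcripts of any of the 10 genes and the transcripts of another of them. At 50 bases, 15.8% of the windows of IFITM1, 5.33% of those of IFITM2 and 17.6% of those of IFITM3 recurred in another of the 3. Counting any other gene, the shares were 55.1%, 12.0% and 20.8%, with 21.9% for IFI6, 4.02% for IFIT3 and 1.27% for IFIT1. Levels of these genes are thus less certain where reads were trimmed. The IFIT genes were less alike, with coding identities between 61.0% (IFIT2 and IFIT5) and 73.0% (IFIT2 and IFIT3), and no window of 50 bases was shared among the 4. Annotated exons of other genes, on either strand, covered 589 exon bases of IFIT2, 527 of IFITM1, 464 of IFITM3 and 216 of IFI6, and at most 94 of each of the others. Of the 150-base windows of IFITM1, 41.2% also occurred in a transcript with an Ensembl ID only, and 10.1% of those of IFI6 in LINC02574, and no other of the 10 canonical transcripts had such a window. Whether reads over these bases were counted depends on the authors' annotation and strand setting, which are not given.

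Of the wider pathway, the ligands were nearly silent, whereas most receptors, signalling factors and other induced genes were detected. Among 22 interferon genes, 14 were listed at 0 and 8 had a mean above 0, at most 1.49 normalized reads in IFNW1. Of all 19727 protein-coding genes listed, 3600 were at 0 and 12444 had a mean of at least 10. IFNB1, the first type I interferon made on viral sensing, had a mean of 0.671 normalized reads, and IFNG was at 0. A value of 0 here means that no read was counted in any library. By counting error alone, an expected total of up to 3 reads over the libraries could still give it.

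The receptors for type I interferon, IFNAR1 and IFNAR2, had 159 and 107 normalized reads per kb. Those for interferon gamma were higher on this length, with 1069 per kb for IFNGR1 and 669 for IFNGR2. Without division by length IFNGR1 had a mean of 3795 normalized reads, IFNAR1 2497, IFNGR2 1700 and IFNAR2 1481. The order of IFNGR2 and IFNAR1 thus depends on the length, and pathway genes were not computed per kb of canonical transcript. IL10RB, the shared chain of the type III receptor, had 184 per kb, whereas its specific chain IFNLR1 had a mean of 0.165 normalized reads, which corresponds to 1 read in all.

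All 12 JAK-STAT and IRF genes had a mean of at least 10, as did 12444 of the 19727 protein-coding genes listed. The kinases TYK2, JAK1 and JAK2 had 688, 377 and 145 normalized reads per kb. STAT2 had 346 per kb, whereas IRF9, its partner on the response element, was the lowest of the list at 13.0 per kb. The highest was IRF8, a factor of the myeloid lineage, at 1242 per kb, followed by IRF3 at 1122. IRF5 had 586, IRF7 174, IRF2 119 and IRF1 82.0 per kb. Exons shared with other genes were counted only for the 10 genes described here, so whether such overlap lowered IRF9 was not tested.

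For the conjugation of ISG15, the activating enzyme UBA7 had 323 normalized reads per kb, the conjugating enzyme UBE2L6 2314, the ligase HERC5 162 and TRIM25, also a ligase, 441. USP18, which removes ISG15 and dampens receptor signalling, had 112 per kb. UBE2L6 alone of the 5 exceeded the 1488 per kb of ISG15 itself. This depends on the length. Without division by it TRIM25 had a mean of 5473 normalized reads, UBE2L6 4771 and UBA7 1470, against 1290 for ISG15. HERC5 (770) and USP18 (460) lay below ISG15.

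Of 69 other interferon-induced genes, 67 had a mean of at least 10, whereas IFI30 had a mean of 6.47 normalized reads and ZBP1 was listed at 0. Their median was 168.5 normalized reads per kb, and 30 of the 67 lay above the median of protein-coding genes, against 5 of the 10 genes described here. The median of the 10 was 822.3, but it falls between IFITM3 at 156 and ISG15 at 1488 per kb, where none of them lay. It therefore describes no gene of the 10. LY6E, a surface protein, was the highest of the list at 2635 per kb, a level that BST2, IFI6 and IFITM2 exceeded. Without division by length LY6E had a mean of 6952 normalized reads, above IFI6 (5035) and below IFITM2 (7573) and BST2 (8384). IFI27 was the lowest of those with a mean of at least 10, at 4.24 per kb. Exons shared with other genes were not examined for this list. Whether they lowered the count of IFI30 or of any other listed gene was not tested.

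**Figure D2:**
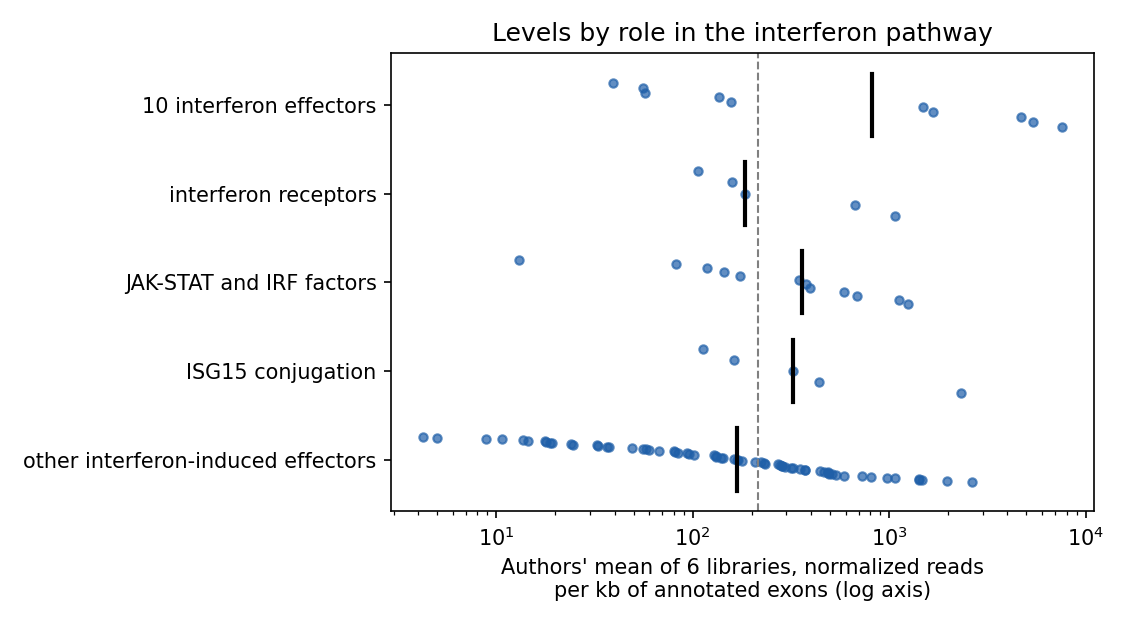
Levels of the 10 genes and of 4 lists of pathway genes with a mean of at least 10, each point 1 gene, as the authors' mean of 6 libraries in normalized reads per kb of annotated exon (log axis). Black bars are list medians and the dashed line the median of protein-coding genes, 215.5 per kb. On this length the 10 genes divide into 5 on either side of the line, with none between 156 and 1488 per kb. Their median bar falls in that gap, whereas other interferon-induced genes fill the range. Per kb of canonical transcript IFITM3 (727) and IFIT3 (287) fall within it, and the lists were not computed on that length.

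SPINK2, the gene targeted by the shRNA, had a mean of 32.3 normalized reads over both groups, a pooled value that does not check the labels of the libraries. The labelled cell type was checked on marker genes. LYZ, CEBPA and SPI1, myeloid genes, had 25578, 12633 and 5232 normalized reads per kb, and CD33, PTPRC and MPO between 416 and 1302, whereas CD34 had only 2.12. Of the markers of plasmacytoid dendritic cells, which secrete large amounts of interferon, CLEC4C had 13.2 per kb and LILRA4 a mean of 4.98 normalized reads. HBB, HBA1, HBA2, EPCAM, KRT18 and COL1A2 were listed at 0, and CDH1 and MS4A1 had means of at most 0.333 normalized reads. KRT8, an epithelial marker, had 14.0 per kb, and the T-cell genes CD3D, CD3E and CD3G had means of at most 4.29 normalized reads. CD79A of the B lineage had 137 per kb, and COL1A1 and DCN of fibroblasts had 16.6 and 2.63 per kb.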

How the data were processed

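RNA of FUJIOKA cells was sequenced by the authors as paired reads of 150 bases in 3 shNEG and 3 shSPINK2 libraries. Per the labels and the study's methods, reads were aligned to GRCh38 with STAR 2.7.11, counted per gene with featureCounts and normalized with DESeq2 1.40.0. The annotation release and the strandedness of counting are not given in the sources used here, so antisense neighbours may share reads. The one value used is a signal that the authors deposited, the mean over all 6 libraries of read counts divided by size factors. The same table holds the authors' comparison of shSPINK2 with shNEG (log2 fold change, its standard error, a statistic, p-values and a status), and no value reported here was computed from these columns.

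The planned tests between groups needed reads per library of known group. Such reads were first rebuilt with the help of the authors' fold changes and standard errors and fitted for differences, and this was abandoned because it drew on those columns. Its results were known when the text was written, and none is given. From the mean alone, between about 56 (IFIT2) and 166000000000 (BST2) sets of whole reads are expected to give the same value, so no test between groups was made. Depth per library is therefore unknown, and the means sum to 38425214, with 32220 genes above 0.

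Gene IDs without version were matched to GENCODE release 44, for 10 of 10 genes. Means were divided by the length of all annotated exons in kb. Promoter sequences came from RefSeq (GRCh38.p14), and the 20 windows with a word were checked against the genome. Coding sequences were aligned globally with Biopython 1.88, and windows of 150 and 50 bases were compared with all GENCODE transcripts. Python 3.11.15 and pandas 2.3.3 were used. The genes and the role lists were chosen with earlier results of these data known. Genes named are the 10, SPINK2, the genes of the receptor, JAK-STAT and IRF and conjugation lists (some listed genes and markers are not reported here), and, in place of fold changes that were not estimated, the highest and lowest of the other lists by level. Genes beside the clusters, IFNB1, IFNG, IFI30 and the genes with reads given under other observations were named after their values were seen.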

Additional observations from a re-analysis of the deposited data

How the results depend on the processing

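The length by which means were divided changed several results. The widest step between neighbouring genes was 9.53-fold per kb of annotated exon (ISG15 to IFITM3), 4.67-fold per kb of canonical transcript (IFIT3 to IFIT1) and 2.17-fold without division by length (IFITM1 to ISG15). Of 9 neighbouring pairs in the order, 8 stood with the canonical length and 7 without a length, and 6 in place of 5 genes lay above the median of protein-coding genes with the canonical length. These settings were chosen after seeing the data. The longer promoter word was present in 8 genes, like the main one. Other settings could not change their result by construction. The shorter word is part of the main one, division by the median of ACTB, GAPDH, TBP, HPRT1 and PPIA scales every gene alike, and the 44 of 119 pathway genes above the median all had means beyond the filters of 10 and 50. Tests between groups with edgeR or voom, other pseudocounts, total-read normalization, other thresholds and each library left out were not run, since no reads per library of known group were used. No paired analysis was possible because the deposited mean carries no replicate number. For the 10 genes the pooled mean can show neither the spread between libraries nor an effect of the shRNA.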

Other observations

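For genes with a mean below 40 the mean fixes the whole reads behind it, because genes with 1 read in 1 library take only 6 values, each shared by 546 to 662 genes, which give the weight of a read in each library. The libraries so told apart carry no group, and their reads are given from the lowest to the highest. Each gene was sorted separately, so the same place in the order need not be the same library. SPINK2, the gene targeted by the shRNA, had 6, 7, 9, 53, 56 and 63 reads, which fall into 2 separate clusters of 3 libraries. Which libraries belong to shNEG and which to shSPINK2 was not assigned from these values. CXCL10, a chemokine induced by interferon, had 7, 9, 11, 19, 24 and 27 reads. IFI27 had 11, 13, 18, 19, 21 and 24 reads and BATF2 had 8, 12, 14, 14, 15 and 22. IFNB1 had 4 reads in all and IFNW1 had 9, over the 6 libraries, and IFIT1B had 2. Of the relatives of the IFITM genes, IFITM5 had 8 reads in all and IFITM10 had 34.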
